A study of Mus musculus with 12 samples.

Results

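Kcnt1 and Kcnt2 are the 2 genes, of 55336 in the feature table of the deposited matrices, whose symbols name the sodium-activated potassium channels, and their RNA was described here in nuclei of the juvenile mouse cortex. Both proteins open a potassium pore when sodium accumulates under the membrane, which gives a slow outward current after bursts of action potentials. Kcnt1 encodes the subunit known as Slack and Kcnt2 the subunit known as Slick; the subunits can combine in one channel, and variants of human KCNT1 that raise channel activity cause severe epilepsies of infancy. Kcnt1 and Kcnt2 belong to the Slo family, with the calcium-activated channel Kcnma1.

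The study compared WT mice with mice heterozygous (Het) for MYT1L S710fsX, a frameshift in the neuronal transcription factor Myt1l on a C57BL/6 background. Cortex was taken at P21 from 3 male and 3 female WT and 3 male and 3 female Het animals, 12 in all. Nuclei of each animal received barcodes of their own at reverse transcription. They were then pooled with those of the other animals on the same plate. All 12 had received AAV9 vectors for hyPB and H2b-tdT-SRT as newborn pups, so both genotypes carry that treatment. The animals came from several litters that the labels do not tie to single animals, so litter and genotype could not be separated, and p-values measure the spread between these animals. Kcnt2 was chosen by its Het against WT fold change in these same animals, known from L6 CT-like and L4/5 IT-like nuclei, and Kcnt1 as its family partner; the Het against WT values of Kcnt2 are therefore given as a description with no p-value.

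Limits on UMIs, genes and mitochondrial UMIs left 39250 of 78743 barcodes, and 1967 of those were removed as likely doublets. Both barcode counts are below the number of nuclei that the study states. The 37283 nuclei kept (16351 WT, 20932 Het) held 6.34e+06 to 1.31e+07 UMIs per WT animal and 8.68e+06 to 1.56e+07 per Het animal. Between animals 0 barcodes were shared, which their separate barcodes fix in advance. Nuclei were sorted into 17 classes by UMIs of marker panels that held neither Kcnt1 nor Kcnt2, and a class is called "-like" for that reason. Markers left out of the sorting checked the names. They were raised for 4 of 4 in striatal projection-like, 3 of 3 in Pvalb-like and L5 NP-like and 2 of 2 in Vip-like nuclei. Only 0 of 3 were raised in L4/5 IT-like and 1 of 3 in L6 CT-like and L6b-like nuclei, whose names rest on the panels. L6 IT-like and CA-like nuclei had 1 of 2 raised, and non-neuronal classes had no markers left out. Some markers left out served more than 1 class and do not tell those apart. Adarb2 served Vip-like and Lamp5-like nuclei, and Lhx6 served Pvalb-like and Sst-like nuclei. Counting panel markers too, 3 of 7 were raised in both L4/5 IT-like and L6b-like nuclei. The 640 L6b-like nuclei grew from 5 seed nuclei with clear panel matches, and the 925 DG-like nuclei from 8. The 1946 L5 NP-like nuclei grew from 75 seeds and the 284 L6 IT-like nuclei from 22. L5 IT and L5 ET classes held 36 and 61 nuclei, too few per animal for use. The cortex samples also held hippocampal dentate (DG-like) and CA-like nuclei and striatal projection-like nuclei, and 10920 excitatory and 2972 inhibitory nuclei were placed in no finer class. Levels are CPM, the UMIs of a gene divided by all UMIs of that class in that animal and scaled to 1e+06. Myt1l RNA was 896 ± 54.2 CPM in WT and 998 ± 37.6 CPM in Het nuclei (SD, n = 6 each), so the level of a transcript that carries a frameshift did not check the genotype labels.

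In mm10, Kcnt1 (ENSMUSG00000058740.14) spans chr2:25863734-25918273 on the plus strand, 54.54 kb with 9499 exonic bases. Kcnt2 (ENSMUSG00000052726.15) spans chr1:140246158-140612067 on the plus strand, 365.9 kb with 6895 exonic bases. The longest run of bases that a Kcnt1 and a Kcnt2 transcript of the GENCODE annotation share is 23 bases, shown here as the closest stretch of the spliced transcripts; introns, which nuclear RNA also holds, were not compared:

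shared run: gactacatggcagatgccaagac

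Gm37777, on the same strand, and 4930590L20Rik, on the opposite strand, lie within or across Kcnt2. Both were low beside it: in excitatory nuclei Gm37777 had 6.38 CPM in WT and 4.40 CPM in Het, and 4930590L20Rik 6.79 CPM in each. Of 3281 Kcnt2 entries with a fractional UMI, 14 were in nuclei where 4930590L20Rik was fractional too and 10 where Kcnt1 was. A promoter sequence was at hand only for Kcnt2, the member chosen by its Het against WT fold change. The stretch of 250 bases before its RefSeq start (GRCm38.p6, chr1:140245468-140245717, plus strand), which lies upstream of the GENCODE start, is shown with its 10 CpG dinucleotides in capitals:

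Kcnt2 promoter: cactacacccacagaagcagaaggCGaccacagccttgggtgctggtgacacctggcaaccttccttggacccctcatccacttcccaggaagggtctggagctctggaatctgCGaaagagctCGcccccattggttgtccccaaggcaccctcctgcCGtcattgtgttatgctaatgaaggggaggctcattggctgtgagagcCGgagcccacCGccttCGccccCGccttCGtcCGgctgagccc

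AAGTT, the core sequence that MYT1 family proteins are known to bind, was searched on both strands (AAGTT or AACTT). It had 0 matches in this window, and 35.3% of 32851 such windows in RefSeq held it. Binding of MYT1L was not tested, and the window covers only a small part of the Kcnt2 locus. GC content was 61.6%, against a median of 52.4% over those windows, which had a median of 6 CpG dinucleotides. Kcnt1 was not in the promoter table.

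Kcnt2 RNA differed widely between cell classes (the plot of both genes by class). Over the 14 neuronal classes its mean level spanned 19.3-fold. Vip-like interneurons had 934 ± 114 CPM (SD over 12 animals of both genotypes). L4/5 IT-like nuclei, named for intratelencephalic cells of the middle layers, had 932 ± 147 CPM. CLA/EPd Car3-like nuclei followed with 788 ± 233 CPM (n = 10) and L5 NP-like nuclei with 759 ± 186 CPM (n = 12). L6 IT-like, L2/3 IT-like, DG-like, CA-like, L6b-like, L6 CT-like and Lamp5-like nuclei had means between 370 and 547 CPM. OPC-like and Sst-like nuclei had 151 ± 54.8 and 137 ± 44.5 CPM, and striatal projection-like nuclei 77.2 ± 27.1 CPM. Pvalb-like interneurons, the fast-spiking cells, had 48.5 ± 14.1 CPM, the lowest neuronal level, and oligodendrocyte-like nuclei 11.1 ± 6.14 CPM.

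**Figure D1:**
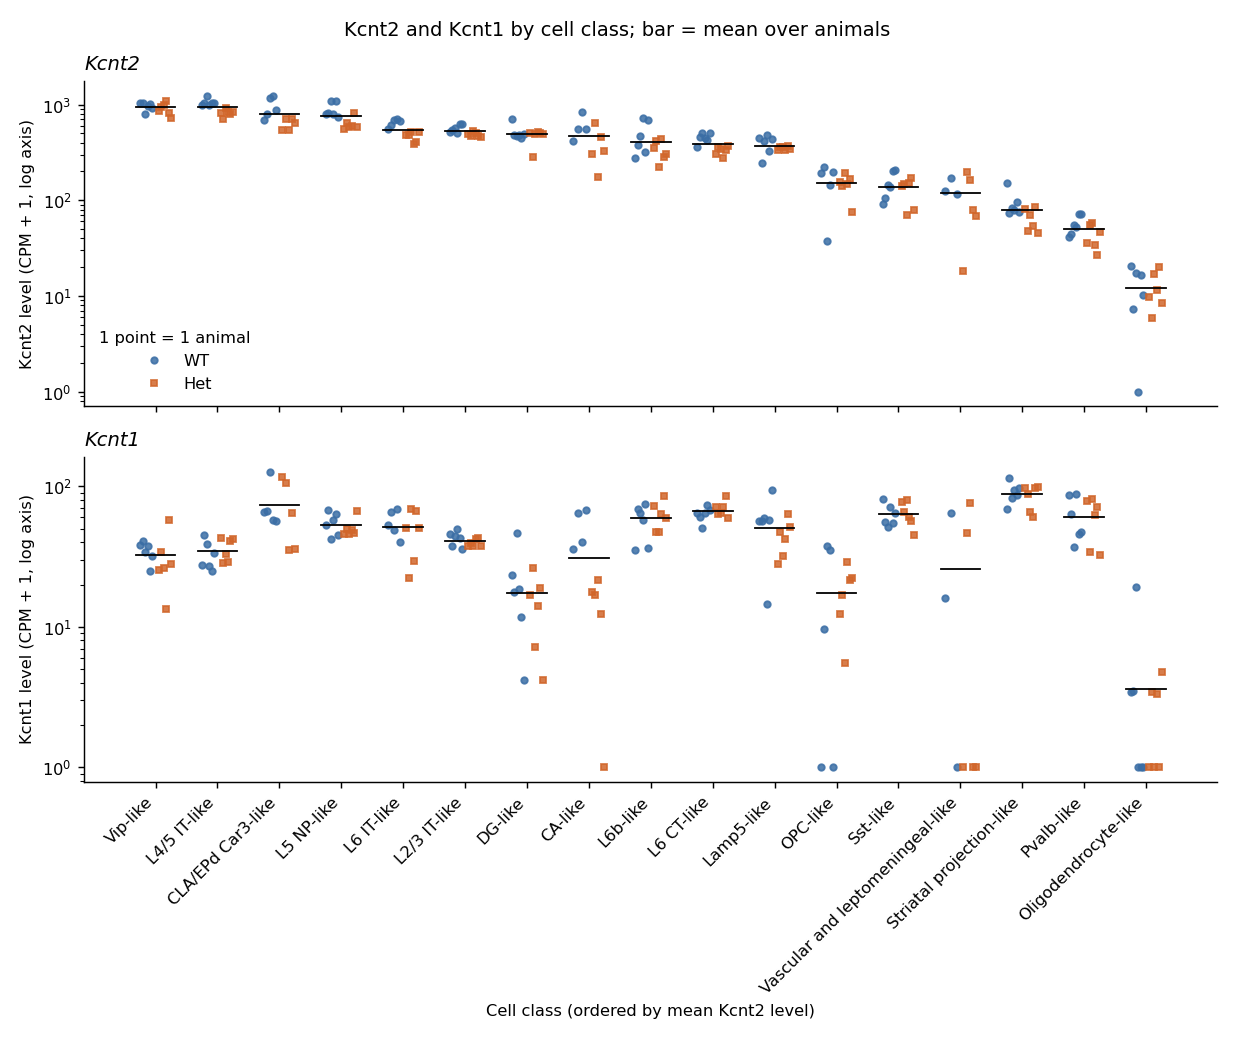
Levels of Kcnt2 (top) and Kcnt1 (bottom) in 17 cell classes, in CPM + 1 on a log axis, with 1 point per animal (circles WT, squares Het) and a bar at the mean over animals. Among neuronal classes Kcnt2 ranges from 934 CPM in Vip-like to 48.5 CPM in Pvalb-like nuclei and Kcnt1 from 86.4 CPM in striatal projection-like to 16.5 CPM in DG-like nuclei; oligodendrocyte-like nuclei are lowest, at 11.1 and 2.64 CPM.

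Many neighbours in that order did not differ beyond their spread. The within-animal difference between neighbours was tested with an exact two-sided sign-flip permutation test and adjusted over the 16 pairs of neighbours. L5 NP-like nuclei were above L6 IT-like nuclei in 11 of 11 animals (adjusted p = 0.00521, exact test), and Lamp5-like above OPC-like nuclei in 11 of 11 (adjusted p = 0.00521, exact test). Striatal projection-like nuclei were above Pvalb-like nuclei in 10 of 12 animals (adjusted p = 0.0117, exact test), and Pvalb-like above oligodendrocyte-like nuclei in 12 of 12 (adjusted p = 0.00521, exact test). Non-neuronal nuclei rich in neuronal transcripts had been left out, so tests of neurons against non-neuronal classes are not free of that selection. The other 12 pairs did not pass, among them Vip-like against L4/5 IT-like nuclei (log2 difference 0.01 ± 0.28, SD, n = 12). Part of this order depends on the filters. The set called here without the upper limits drops those on UMIs and genes and also the minimum of log genes over log UMIs. Its doublets and classes were set anew. In that set L4/5 IT-like nuclei stood alone at the top with 1219 ± 182 CPM, above the next class in 12 of 12 animals (adjusted p = 0.00391, exact test). Vip-like nuclei had 755 ± 73.5 CPM there. L5 NP-like nuclei no longer passed against L6 IT-like nuclei (higher in 8 of 12, adjusted p = 0.191, exact test).

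Many classes farther apart in the order differed. Over all pairs of classes, an alternative added after the data were seen, 115 of 136 differed for Kcnt2 and 81 of 136 for Kcnt1 at an adjusted p below 0.05. Among interneurons, Kcnt2 was higher in Vip-like than in Lamp5-like, Sst-like and Pvalb-like nuclei in 12 of 12 animals each, by 1.34 ± 0.34, 2.83 ± 0.53 and 4.29 ± 0.45 on the log2 scale (SD, n = 12; adjusted p = 0.00125 for each, exact sign-flip tests). In 12 of 12 animals L4/5 IT-like nuclei exceeded L2/3 IT-like nuclei by 0.82 ± 0.14 and L6 CT-like nuclei by 1.26 ± 0.18 on the log2 scale (SD, n = 12; adjusted p = 0.00125 for each, exact tests).

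Kcnt1 was lower in UMIs and had another order. In all 37283 nuclei it had 6222 UMIs, against 52550 for Kcnt2, and its mean level spanned 5.24-fold over the 14 neuronal classes (2.99-fold with no upper limits on UMIs and genes, 10.8-fold under stricter classes, which left no CA-like class to compare). Striatal projection-like nuclei were highest at 86.4 ± 16.0 CPM (SD, n = 12), followed by CLA/EPd Car3-like (72.0 ± 32.2, n = 10), L6 CT-like (65.2 ± 8.64), Sst-like (62.8 ± 11.8) and Pvalb-like nuclei (59.6 ± 20.7, n = 12 each). Kcnt1 was low in L4/5 IT-like (33.4 ± 7.10) and Vip-like nuclei (31.7 ± 10.9), the classes richest in Kcnt2. Inside the filters the lowest neuronal level was that of DG-like nuclei (16.5 ± 11.6). Without the upper limits DG-like nuclei had a mean of 29.6 CPM and CA-like nuclei one of 27.7 CPM. Inside the filters oligodendrocyte-like nuclei had 2.64 ± 5.10 CPM.

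No pair of neighbours in the order of Kcnt1 passed (0 of 16, lowest adjusted p = 0.0938, exact sign-flip test; at an unadjusted p below 0.05 there were 3). Over all pairs, striatal projection-like nuclei differed from 15 of the 16 other classes, the exception being CLA/EPd Car3-like nuclei (adjusted p = 0.0708, exact test, n = 10). L6 CT-like nuclei were above L4/5 IT-like nuclei in 12 of 12 animals, by 0.96 ± 0.37 on the log2 scale (SD, n = 12; adjusted p = 0.00246, exact test). Pvalb-like and Sst-like nuclei were above Vip-like nuclei in 12 and 11 of 12 animals, by 0.88 ± 0.70 and 1.02 ± 0.59 (SD, n = 12; adjusted p = 0.00246 and 0.00302, exact tests). Across the 14 neuronal classes, which share animals, the log2 levels of both genes had a Pearson r of -0.47 and a Spearman rho of -0.45, given as a description.

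Levels of different genes are hard to set side by side, because nuclear RNA holds introns and Kcnt2 is the longer gene. UMIs count molecules, so scaling by length is given as a description beside the plain levels. Without scaling, Pvalb-like nuclei had 48.5 ± 14.1 CPM of Kcnt2 and 59.6 ± 20.7 CPM of Kcnt1. Striatal projection-like nuclei had 77.2 ± 27.1 and 86.4 ± 16.0 CPM (SD, n = 12 each). Per kb of gene, excitatory nuclei had 1.34 CPM of Kcnt2 and 0.882 CPM of Kcnt1, and L4/5 IT-like nuclei 2.55 and 0.612. In Pvalb-like nuclei the order was the reverse, with 0.132 CPM per kb of gene for Kcnt2 and 1.09 for Kcnt1, and in striatal projection-like nuclei it was 0.211 and 1.59. Per kb of exon, Kcnt2 was above Kcnt1 also in these, with 7.03 against 6.27 CPM in Pvalb-like and 11.2 against 9.10 CPM in striatal projection-like nuclei. Sst-like (0.374 and 1.15) and, by less, L6 CT-like nuclei (1.06 and 1.20) also had less Kcnt2 than Kcnt1 in CPM per kb of gene, and more per kb of exon (19.8 against 6.61 and 56.5 against 6.87). Which gene is higher in these classes therefore depends on the scaling used.

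The share of nuclei with a UMI did not keep the order of the levels in every class. Shares at a common depth are those expected after thinning, worked out from the counts of each nucleus and not from a random draw. At a common depth of 1500 UMIs, Kcnt2 was seen in 68.4% ± 3.50 of WT L4/5 IT-like nuclei, 51.5% ± 3.63 of WT Vip-like nuclei and 6.86% ± 0.765 of WT Pvalb-like nuclei (SD, n = 6 animals). WT L5 NP-like nuclei, at 889 CPM, had a share of 45.6% ± 4.46, below the 49.4% ± 3.77 of WT L2/3 IT-like nuclei at 564 CPM. Kcnt1 was seen in 12.2% ± 2.10 of WT striatal projection-like and 4.59% ± 1.08 of WT L4/5 IT-like nuclei. By genotype, Kcnt2 was seen in 43.9% ± 3.82 of WT and 38.0% ± 1.79 of Het excitatory nuclei, and Kcnt1 in 6.71% ± 0.455 and 6.92% ± 0.717 (SD, n = 6 each). Within L6 CT-like nuclei the Kcnt2 shares were 40.9% ± 4.19 and 32.7% ± 1.88, and within Vip-like nuclei 51.5% ± 3.63 and 54.4% ± 4.53. In WT oligodendrocyte-like nuclei, which should lack both, the shares were 1.63% for Kcnt2 and 0.380% for Kcnt1. Nuclei of that class rich in neuronal transcripts had been left out. Those kept had a median of 2584 UMIs, against 3468 in L4/5 IT-like and 4128 in Pvalb-like WT nuclei.

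**Figure D2:**
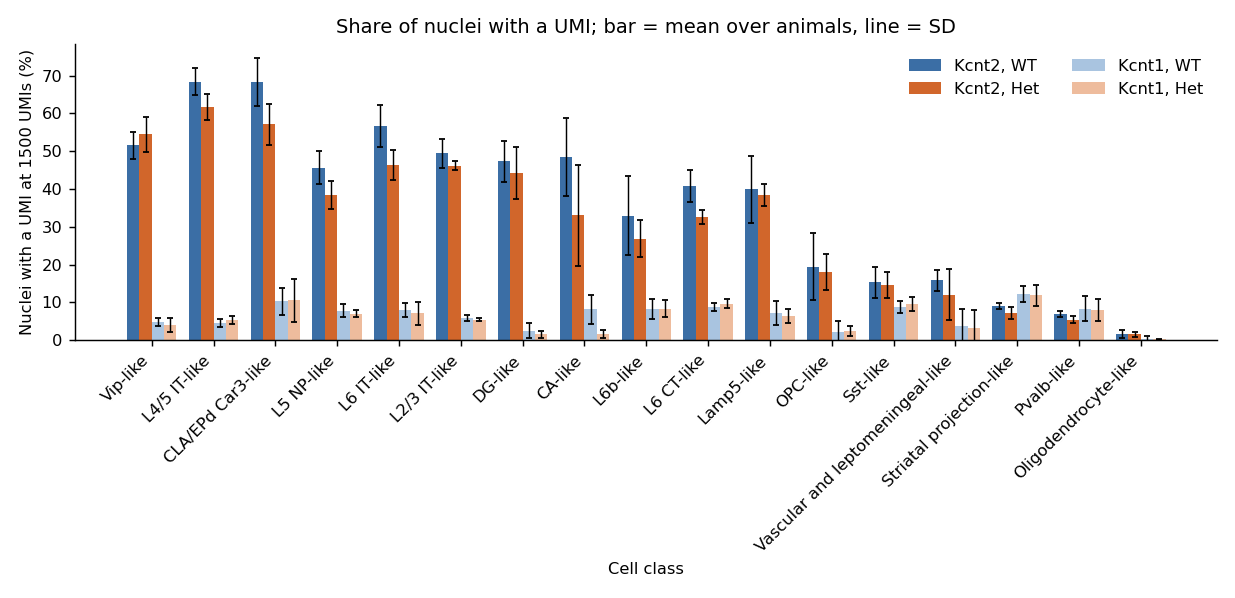
Expected share of nuclei with at least 1 UMI of Kcnt2 (dark bars) or Kcnt1 (light bars) when each nucleus is thinned to 1500 UMIs, in percent, by class and genotype (blue WT, orange Het); bars are means over animals and lines are SDs. Kcnt2 reaches 68.4% in WT L4/5 IT-like nuclei and Kcnt1 12.2% in WT striatal projection-like nuclei.

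Both genes were seen together less often than the product of their shares in inhibitory nuclei as a pool, with a mean of 1.05% against 1.73% and the lower value in 12 of 12 animals. That pool joins classes rich in either gene. Within Vip-like nuclei the values were 1.41% and 2.33% (lower in 11 of 12 animals). In L4/5 IT-like nuclei they were 3.59% and 3.19% (lower in 2 of 12), and in L6 CT-like nuclei 3.31% and 3.35% (lower in 8 of 12). These shares are descriptions without a test.

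For each gene, genes with the most similar mean level over the 17 classes in WT animals were sought among 6134 genes, by Pearson's r of log2 levels. Kcnt1 was most like Focad (r = 0.93), Trim37 (0.92), Arhgap26 (0.92), B830012L14Rik (0.91) and Lncpint (0.91). Over the 14 neuronal classes alone these values were between 0.57 and 0.82. Kcnt2 was most like Miat (r = 0.90), Sobp (0.87), Gm42972 (0.86) and Plekha6 (0.85) among the genes given here, with values between 0.72 and 0.84 over the neuronal classes. Miat, a long noncoding RNA of neurons, had 302 CPM in WT L4/5 IT-like and 40.5 CPM in WT Pvalb-like nuclei, but 115 CPM in WT Vip-like nuclei, where Kcnt2 had 964 CPM against 1051 CPM in WT L4/5 IT-like nuclei.

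The comparison of genotypes asked how RNA levels differ when 1 copy of Myt1l carries the frameshift. Kcnt2 was lower in Het excitatory nuclei (the plots of Kcnt2 per animal and of fold changes). WT animals had 461 CPM at the lowest, 556 at the median and 613 at the highest, and Het animals 406, 427 and 455. Every Het animal was below every WT animal, with means of 546 ± 58.8 and 430 ± 18.5 CPM (SD, n = 6 each). The log2 fold change was -0.37 ± 0.07 (SE derived from the edgeR fold change and test statistic, as throughout for edgeR fits). The share of all genes tested in excitatory nuclei with every Het below every WT animal was 0.162%. WT animals spread more widely than Het animals. L6 CT-like nuclei, low in Kcnt2, made up 21.1% ± 2.96 of the WT pool and 23.0% ± 1.57 of the Het pool (SD, n = 6). Among classes high in Kcnt2, the shares were 5.02% ± 2.15 and 4.47% ± 1.20 for L4/5 IT-like and 1.06% ± 0.323 and 0.708% ± 0.244 for CLA/EPd Car3-like nuclei. L5 NP-like nuclei, also high in Kcnt2, went the other way, with 7.53% ± 1.14 and 8.20% ± 1.27. DG-like nuclei made up 3.20% ± 0.668 and 4.27% ± 0.898, and excitatory nuclei without a subclass 45.7% ± 2.66 and 42.3% ± 2.14, and the part of these shares in the pooled value was not tested.

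**Figure D3:**
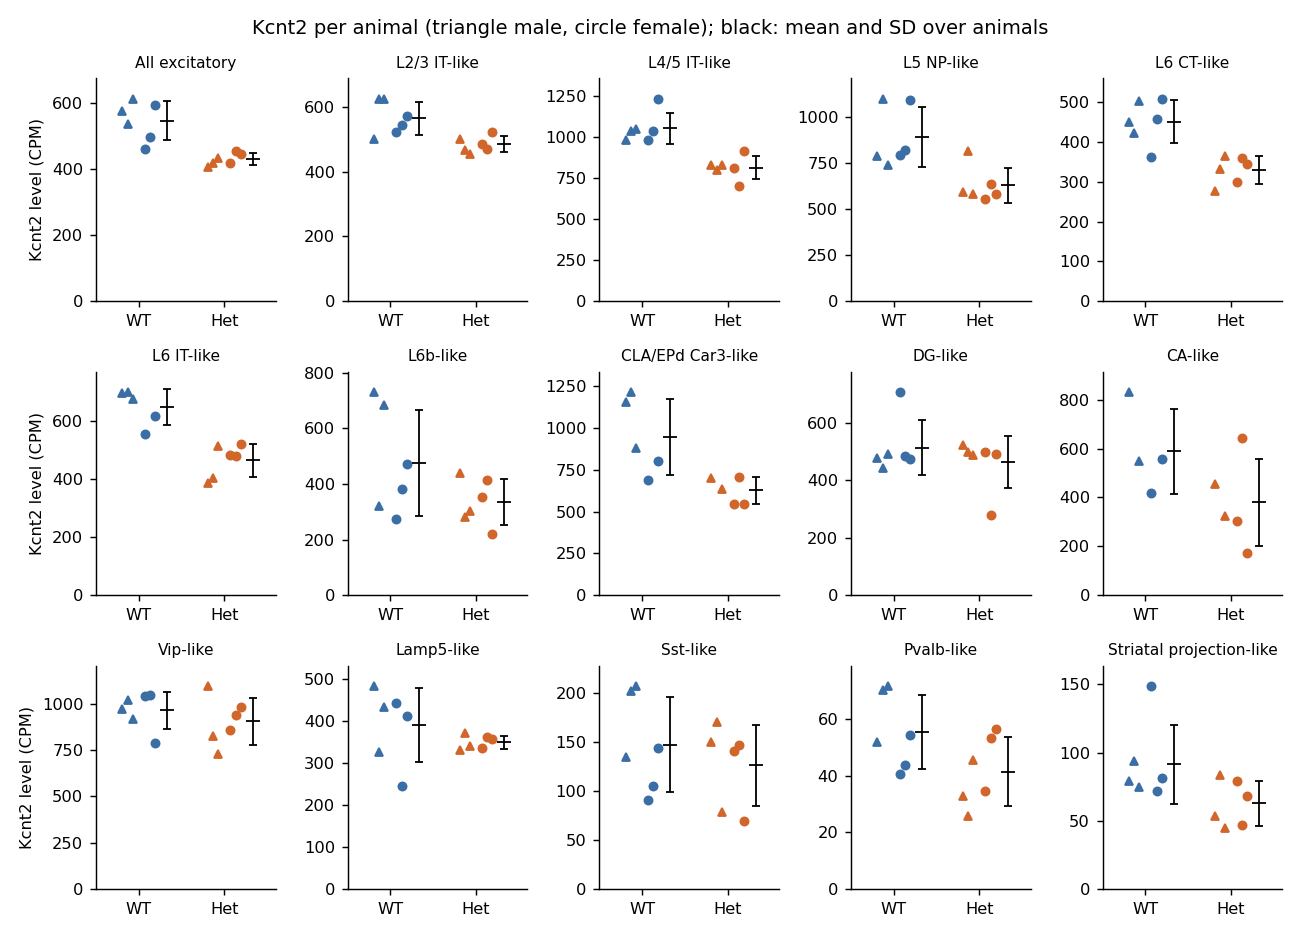
Kcnt2 levels in CPM per animal (triangles male, circles female) in WT and Het, in excitatory nuclei as a pool and in 14 neuronal classes, with the mean and SD in black and axes from 0. The 6 Het animals lie between 406 and 455 CPM in excitatory nuclei, below the 6 WT animals at 461 to 613 CPM.

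In L4/5 IT-like nuclei Kcnt2 ran from 979 over a median of 1033 to 1231 CPM in WT and from 698 over 819 to 912 CPM in Het animals. The groups did not overlap, as for 0.15% of all genes tested in that class, with a log2 fold change of -0.39 ± 0.09 (SE). WT female 3 stood above the rest at 1231 CPM, and without one animal in turn the fold change stayed between -0.44 and -0.35. In L6 CT-like nuclei, named for corticothalamic cells, Kcnt2 ran from 362 over 453 to 508 CPM in WT and from 277 over 338 to 364 CPM in Het animals. Only the lowest WT animal lay below the highest Het animal (log2 fold change -0.49 ± 0.08, SE).

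L5 NP-like nuclei, named for near-projecting cells, had 740 to 1100 CPM in WT (median 807) and 558 to 818 CPM in Het animals (median 589). The log2 fold change was -0.53 ± 0.10 (SE). Het male 2 had 818 CPM and the other 5 Het animals at most 637 CPM. L6 IT-like nuclei had 552 CPM at the lowest, 673 at the median and 696 at the highest in 5 WT animals, and 387, 479 and 521 in 6 Het animals, with no overlap, as for 0.574% of all genes tested there (log2 fold change -0.50 ± 0.14, SE). That class held only 11 to 39 nuclei and 27 to 86 Kcnt2 UMIs per animal. In L2/3 IT-like nuclei of the upper layer the ranges were 501 to 625 and 454 to 522 CPM (log2 fold change -0.26 ± 0.08, SE), and 4 of 6 Het animals were below every WT animal.

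In the remaining excitatory classes the fold changes were also below 0, with errors wider than those above in all but DG-like nuclei. L6b-like nuclei had 477 ± 191 and 334 ± 83.3 CPM (log2 fold change -0.54 ± 0.24, SE), and CLA/EPd Car3-like nuclei 948 ± 227 and 627 ± 80.7 CPM (-0.59 ± 0.17). In hippocampus-type nuclei the log2 fold change was -0.67 ± 0.29 for CA-like (4 WT and 5 Het animals) and -0.15 ± 0.13 for DG-like nuclei, where only 1 of 6 Het animals was below the WT median. The DG-like value was -0.04 without WT female 1 and -0.05 without Het female 2, which held the highest and the lowest level.

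Among inhibitory classes the fold changes were -0.11 ± 0.09 in Vip-like, -0.20 ± 0.15 in Lamp5-like, -0.26 ± 0.20 in Sst-like, -0.43 ± 0.23 in Pvalb-like and -0.52 ± 0.20 in striatal projection-like nuclei (log2, SE). The striatal projection-like value was -0.32 without WT female 1, whose level was the highest. The Sst-like value was -0.12 without WT male 3 and -0.13 without Het female 3, and the Vip-like value was -0.07 without Het male 3 and -0.18 without Het male 1. When the upper limits on UMIs and genes were dropped, the values were 0.05 in Pvalb-like, -0.03 in Sst-like and -0.07 in Vip-like nuclei. The Lamp5-like value was -0.09 under stricter classes and -0.10 without the filter on low counts. Vip-like interneurons, with WT values of 788 to 1047 and Het values of 729 to 1094 CPM, overlapped. Their level was near that of L4/5 IT-like neurons inside the filters only; outside them WT means were 622 and 1367 CPM. All inhibitory nuclei as a pool had 302 ± 22.0 CPM in WT and 263 ± 38.2 CPM in Het (log2 fold change -0.21 ± 0.08, SE), and in the same pool the share of striatal projection-like nuclei, which are low in Kcnt2, was 15.1% ± 4.42 in WT and 24.4% ± 2.95 in Het (SD, n = 6); its part in the pooled value was not tested. OPC-like nuclei had -0.24 ± 0.22, with -0.13 without WT female 2, -0.16 without Het male 3 and -0.37 without Het female 3, and in oligodendrocyte-like nuclei Kcnt2 was too low to fit (11.2 and 11.1 CPM).

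Over the 15 classes in which Kcnt2 could be fitted, 15 fold changes were below 0, with a median of -0.43, and in 11 of 15 at least 5 Het animals were below the WT median. In 2 of 15 classes every Het animal was below every WT animal, beside 0.186% of all gene and class combinations in those classes. Because Kcnt2 was chosen for this contrast and the classes come from the same 12 animals, these counts describe the pattern and are no test of it, and differences in fold change between classes were not tested.

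**Figure D4:**
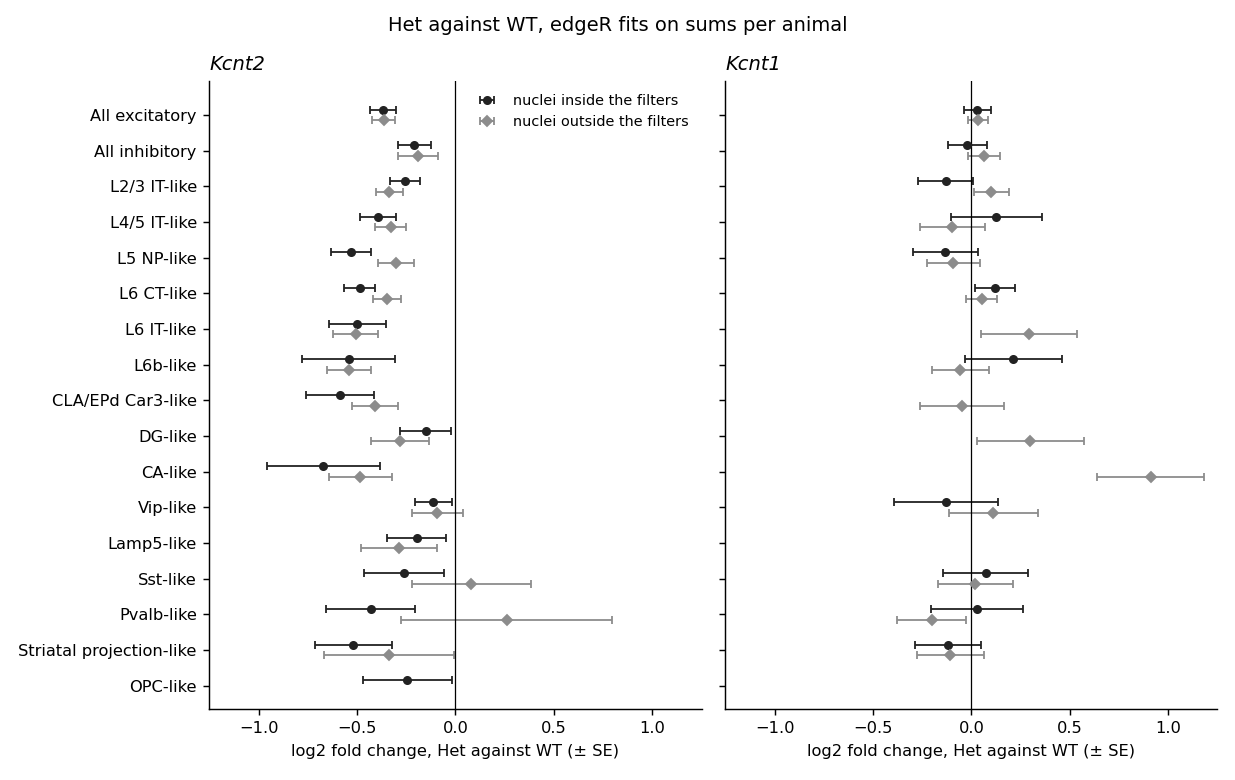
Log2 fold change of Kcnt2 (left) and Kcnt1 (right), Het against WT, with its SE as a horizontal line, by class, for nuclei inside the filters (black circles) and outside them (grey diamonds). Kcnt2 points inside the filters lie between -0.67 and -0.11, and Kcnt1 points inside them between -0.13 and 0.21.

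The same animals gave 36696 further nuclei that the upper limits on UMIs and genes, or the minimum of log genes over log UMIs, had left out. In these, Kcnt2 in excitatory nuclei was 692 ± 55.4 CPM in WT and 546 ± 29.2 CPM in Het (SD, n = 6 each), a log2 fold change of -0.37 ± 0.06 (SE), again with every Het below every WT animal (0.148% of all genes tested). Of 14 classes fitted, 12 were below 0, with a median of -0.33, and the exceptions were Pvalb-like (0.26 ± 0.54) and Sst-like nuclei (0.08 ± 0.30). These nuclei are further cells of the same mice, not further mice.

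Kcnt1 was not called different between genotypes in any class tested. In excitatory nuclei WT animals had 42.7 CPM at the lowest, 47.5 at the median and 50.5 at the highest, and Het animals 43.5, 47.9 and 59.0. The groups overlapped, with means of 47.3 ± 2.87 and 48.8 ± 5.59 CPM (SD, n = 6 each) and a log2 fold change of 0.03 ± 0.07 (95% interval -0.11 to 0.17, adjusted p = 0.964 by edgeR's quasi-likelihood test). Kcnt1 could be tested in 9 classes and passed an adjusted p of 0.05 with a log2 fold change over 0.2 in 0 of 9 by edgeR, where 0.131% of all gene and class combinations passed; at an unadjusted p below 0.05 there were 0 by edgeR and 0 by DESeq2, and DESeq2 called 0.

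Kcnt1 fold changes ran from -0.13 to 0.21 over those 9 classes, 4 of them below 0, with a lowest adjusted p of 0.794 (edgeR). The L2/3 IT-like value of -0.13 ± 0.14 (SE) was -0.40 ± 0.19 under stricter classes (adjusted p = 0.673, edgeR) and 0.07 without the upper limits, and the L4/5 IT-like value of 0.13 ± 0.23 ranged from -0.10 to 0.20 over all alternatives. The highest value, in L6b-like nuclei, was 0.06 without Het male 2, 0.11 without WT male 3, 0.13 without WT female 1 and 0.00 with no upper limits on UMIs and genes. The lowest, in L5 NP-like nuclei, lay between -0.21 without Het male 3 and -0.06 without WT female 2, and was -0.08 without WT male 2 and -0.20 without WT female 3. In L6 CT-like nuclei Kcnt1 ran from 49.7 to 72.2 CPM in WT and from 58.7 to 84.6 CPM in Het animals (log2 fold change 0.12 ± 0.10, 95% interval -0.09 to 0.33), and the value was 0.05 without WT female 3 or without Het male 2. In striatal projection-like nuclei, where it was highest, the ranges were 67.8 to 114 and 59.2 to 97.5 CPM (log2 fold change -0.12 ± 0.17, 95% interval -0.46 to 0.22). That value was -0.02 without WT female 2, -0.19 without WT female 1 and -0.05 without Het male 1 or without Het female 3, and -0.04 without the filter on low counts. Depth limits Kcnt1 in small classes: L6b-like nuclei gave 144 UMIs over 12 animals and a 95% interval of -0.30 to 0.73.

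CA-like nuclei were too few for a test of Kcnt1, with 23 UMIs in all and 0 to 8 per animal. They had 34.7 to 66.7 CPM in 4 WT and 0 to 20.4 CPM 0 to 20.4 CPM in 5 Het animals, without overlap, as for 1.13% of the genes that were tested there. CA-like nuclei outside the filters the direction was the opposite, with 19.0 ± 6.83 CPM in WT and 35.0 ± 8.12 CPM in Het (SD, n = 6 each; log2 fold change 0.91 ± 0.27, adjusted p = 0.997 by edgeR).

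The genotype difference was set against sex in a model with an interaction term. In excitatory nuclei Kcnt2 was 575 CPM in WT and 420 CPM in Het males (means of 3), and 518 and 441 CPM in WT and Het females. The log2 fold change of females minus that of males was 0.25 ± 0.13 (SE; 95% interval -0.01 to 0.51, adjusted p = 0.878 by edgeR). The widest such difference for Kcnt2 was in Pvalb-like nuclei, at 0.88 ± 0.46 (adjusted p = 0.899, edgeR), where males had 64.6 and 34.7 CPM and females 46.3 and 48.2 CPM. Of 30 interaction tests of both genes, 0 passed, 0 had an unadjusted p below 0.05 by edgeR or by DESeq2, and the lowest adjusted p was 0.839, beside 0.00741% of all combinations called.

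Related channels were read from a list of 34 genes chosen for their roles. It holds the Slo channel Kcnma1 with its beta subunits, small-conductance calcium-activated channels, LRRC gamma subunits, voltage-gated sodium channels and the leak channel Nalcn, sodium pump subunits, and proteins that bind or modulate sodium-activated potassium channels. Of these, 26 could be tested in at least 1 class, in 247 combinations of gene and class. By edgeR 0 of 247 passed in either direction, against 0.106% of all combinations, and 6.88% had an unadjusted p below 0.05 against 6.76% of all combinations; DESeq2 called 2, Scn1a in L6 CT-like (adjusted p = 0.0467) and Ano3 in DG-like nuclei (adjusted p = 0.0448). Over all gene and class combinations DESeq2 called 0.19%.

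Kcnma1, the calcium-activated member of the family, had 2027 ± 104 CPM in WT and 2099 ± 25.5 CPM in Het excitatory nuclei (SD, n = 6), and 7 of 16 of its class fold changes were below 0. Ano3, reported to bind Slack and raise its sodium sensitivity, had fold changes below 0 in 11 of 13 classes with a median of -0.17, and -0.49 ± 0.11 in DG-like nuclei (adjusted p = 0.0644, edgeR). Fmr1, whose protein binds Slack, was below 0 in 8 of 11 classes with a median of -0.09 (lowest adjusted p = 0.777, edgeR). Scn2a, a sodium channel of excitatory neurons, was below 0 in 12 of 16 with a median of -0.03 (lowest adjusted p = 0.716, edgeR).

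The sodium channel subunit Scn4b passed in inhibitory nuclei as a pool, with 6.87 ± 3.25 CPM in WT and 16.8 ± 3.45 CPM in Het (SD, n = 6; log2 fold change 1.30 ± 0.23, adjusted p = 0.00380, edgeR; 0.787% of all genes passed there). Scn4b is known from striatal projection neurons. The share of striatal projection-like nuclei in that pool was 15.1% in WT and 24.4% in Het, and its part in the Scn4b value was not tested. Within striatal projection-like nuclei its fold change was 0.56 ± 0.23 (adjusted p = 0.845, edgeR), and in the pool Scn4b no longer passed when the upper limits on UMIs and genes were dropped.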

How the data were processed

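The authors deposited, for each of the 12 animals, a matrix of expected counts (UMIs, in part fractional) per gene and nucleus, made with the ScaleRna pipeline on mm10 (per the labels and the methods of the study). The submitters' processing notes also name Seurat 4.3.0 and DESeq2 1.38.3. Of the stored entries 92.6% were whole, 99.3% for Kcnt1 and 93.4% for Kcnt2.

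With the limits that the methods of the study give, nuclei were kept if they held between 800 and 6000 UMIs and between 300 and 3000 genes, no more than 1% of UMIs from mitochondria, and log genes over log UMIs of 0.9 or more. The study removed multiplets with DoubletFinder before these limits. Here the top 5% by Scrublet score (scanpy 1.11.5) in each animal were removed in its place, after them. A nucleus joined a class at a posterior of at least 0.9 from at least 2 panel UMIs. Non-neuronal nuclei were left out if their level of neuronal marker transcripts exceeded 0.25 of the median in neurons, which removed 258. A class was used with at least 10 nuclei in at least 3 animals of each genotype and at least 3 raised markers. The vector transcript was kept out of totals and tests.

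Counts were summed per animal and class, rounded, and fitted by genotype with edgeR 4.0.16 in R 4.3.3 (TMM, filterByExpr, robust quasi-likelihood test), with Benjamini-Hochberg adjustment over all genes tested in the class. A gene was called at an adjusted p under 0.05 and a log2 fold change over 0.2 in size. Levels across classes were compared within animals on log2(CPM + 1) by exact sign-flip permutation tests (scipy 1.17.1). Shares at 1500 UMIs are those expected when each nucleus is thinned to that depth, from a hypergeometric formula on its counts. The fitting was tested on simulated data. Alternatives were DESeq2 1.42.0, other scalings, filters, class rules and covariates, and leaving out each animal. The alternative without the upper limits also dropped the minimum of log genes over log UMIs, and its doublets and classes were set anew.

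The genes described, the lists and the tests were chosen with earlier results of these data known. Named genes were Kcnt1 and Kcnt2 in every class, listed genes that passed in any class or pool and otherwise Kcnma1, Fmr1, Ano3 and Scn2a, the 5 genes with the most similar class levels among those with a mean of at least 20 CPM (1 of them is not reported here), and Myt1l. Scn1a was added after its value was seen.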

Additional observations from a re-analysis of the deposited data

Results flagged for a closer look

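In 8 of 78 groups of 4 to 6 animals, 1 animal lay far from the others by Dixon's test, where chance gives 3.9. For Kcnt2, WT female 3 had 1231 CPM in L4/5 IT-like nuclei (others 979 to 1047), Het male 2 had 818 CPM in L5 NP-like nuclei (others 558 to 637), and WT female 1 had 149 CPM in striatal projection-like nuclei (others 72.1 to 93.7). In DG-like nuclei WT female 1 had 704 CPM of Kcnt2 (others 442 to 491) and Het female 2 had 279 CPM (others 486 to 521).

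For Kcnt1, Het male 3 had 65.4 CPM in L5 NP-like nuclei (others 44.4 to 48.8) from 33 UMIs, and WT male 1 had 126 CPM in CLA/EPd Car3-like nuclei (others 55.8 to 65.5) from 12 UMIs. WT female 3 had 18.2 CPM of Kcnt1 in oligodendrocyte-like nuclei (others 0 to 2.49) from 2.5 UMIs.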

How the results depend on the processing

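The log2 fold change of Kcnt2 in excitatory nuclei stayed between -0.42 and -0.33 when each animal was left out in turn and between -0.37 and -0.35 under the other alternatives. That of Kcnt1 stayed between -0.03 and 0.06 and between 0.02 and 0.05, and it was called in none of these. In Pvalb-like nuclei the Kcnt2 value was 0.05 without the upper limits, against -0.43 with them, and in Sst-like nuclei -0.03 against -0.26; the cause was not tested. It was -0.04 in DG-like nuclei without the filter on low counts. Among the related channels, 1 combination of gene and class or pool was called, against 3 by DESeq2, 2 without TMM, 4 without the filter on low counts, 0 without the upper limits and 1 to 4 when each animal was left out. There were 4 combinations without WT male 2, 3 without WT female 2, and 2 each without WT female 1, Het female 1 and Het female 2; Ano3 in DG-like nuclei passed in 4 of these fits. Without the upper limits 2 pairs of neighbours in the order of Kcnt1 differed in place of 0, and its span over neuronal classes was 2.99-fold, against 10.8-fold under stricter classes, which left no CA-like class to compare. With WT animals only, 0 neighbours differed for Kcnt2, since 6 animals allow no p small enough to pass. At 3000 UMIs, and without thinning, Kcnt2 was seen in 59.8% and 61.2% of WT and 55.5% and 56.4% of Het excitatory nuclei, and Kcnt1 in 12.6% and 14.8% of WT and 13.2% and 15.6% of Het excitatory nuclei.

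Animals were treated as unpaired. Correlations of same-numbered WT and Het animals of the same sex were -0.20 to 0.15 over 9364 genes. Animals with different numbers were not compared, so these values cannot decide whether replicate numbers pair the animals. With sex and replicate number as a block, the log2 fold change in excitatory nuclei was -0.36 for Kcnt2 and 0.02 for Kcnt1 (adjusted p = 0.984, edgeR). Under the same block the Kcnt2 value in OPC-like nuclei was -0.38, and 1 related combination was called.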
